A study of Homo sapiens with 4 samples.

Results

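The transcripts of 10 microtubule genes were examined in ES2 cells, a human ovarian cancer line, by RNA sequencing with and without liquiritigenin (Liq), a plant flavanone used as an agonist of estrogen receptor beta (ERβ). The genes were those of the microtubule-associated proteins MAP2, MAPT (tau), MAP1A, MAP1B, MAP4 and DCX (doublecortin), the tubulin-binding protein stathmin (STMN1), and the β-tubulins TUBB3, TUBB2A and TUBB2B. They were chosen by name and make up 10 of the 23228 genes listed in the count tables. The choice was made with the Liq-to-vehicle differences already known, so their differences are given as a description without p-values. Counts of those that met the call rule follow from the choice and are no test. The lists of related genes below were also drawn up with earlier results of these data known, so their counts are descriptions too. Cells in phenol red-free RPMI with charcoal-stripped serum received vehicle or 100 µM Liq for 24 h, with 2 samples per group. Both groups shared the line and the medium, the labels name no genetic change, and they do not say whether the samples of a group came from separate cultures. P-values therefore measure only the spread between these samples, which may be technical.

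Microtubules are hollow polymers of α- and β-tubulin that grow and shrink at their ends. MAP2, tau and MAP4 share a repeated domain that lies along the polymer and stabilizes it, MAP1A and MAP1B bind through other sequences, and stathmin sequesters tubulin dimers and promotes shrinkage. MAP2 and tau are best known from neurons, where MAP2 marks dendrites and tau marks axons, DCX marks migrating young neurons, and MAP4 is the broadly expressed relative. TUBB3 is the neuronal class III β-tubulin, which many carcinoma cells also make.

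The 4 libraries held 34573053 to 48933893 reads assigned to genes, at which depth 3 counts equal 0.06 to 0.084 CPM, the reads on a gene scaled to the normalized size of its library. Replicate numbers carried no order or known pairing. For groups of 2, the smallest p of an exact permutation test on a single gene is 0.333, so tests of genes outside the chosen 10 came from edgeR's quasi-likelihood fit over the 13546 genes that passed a filter on low counts, with Benjamini-Hochberg adjustment. A gene was called when it differed at least 1.5-fold with an adjusted p under 0.05. The line was checked against its label. Vimentin (VIM, 5871 to 7604 CPM) and the keratin KRT7 (238 to 378 CPM) were abundant, whereas MUC16, EPCAM and KRT19 had at most 3 counts in any library. Leukocyte genes PTPRC and CD3E had at most 1 count, and CD14 had 3 to 11. The endothelial cadherin CDH5 was present at 44.6 to 52.9 CPM, but the endothelial genes PECAM1 and VWF had at most 10 and 7 counts. Because these are bulk samples, fewer cells making a transcript and less transcript per cell cannot be told apart.

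The structural MAPs are related through a repeat that ends in a Pro-Gly-Gly-Gly motif. A search of the coding sequences found 2 such motifs in MAP2 and 3 in MAP4. One repeat of each that lies within 1 exon is shown (GRCh37), with the codons of the motif in capitals, because MAP2 is the gene with the largest difference and MAP4 is its abundant relative.
MAP2, chr2:210594627-210594677, + strand: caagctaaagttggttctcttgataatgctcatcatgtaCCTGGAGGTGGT
MAP4, chr3:47908739-47908789, - strand: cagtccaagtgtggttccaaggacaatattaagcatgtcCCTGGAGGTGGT
Of the 51 bases, the 2 repeats shown shared 35, and all pairs of a MAP2 with a MAP4 repeat shared 25 to 36. No 100-base stretch of the MAP2, MAPT or MAP4 transcript fitted another place in the genome within 2 mismatches, so reads of 1 gene were not expected on another.

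MAP2, which stabilizes microtubules in dendrites, showed the largest difference of the 10 genes. Reads on MAP2 numbered 257 and 206 with vehicle but 854 and 1204 with Liq. After normalization these were 6.25 and 5.50 CPM with vehicle and 24.0 and 24.0 CPM with Liq. The groups did not overlap, and both Liq samples lay far above both vehicle samples. The mean was 5.88 ± 0.529 CPM with vehicle and 24.0 ± 0.018 CPM with Liq (SD, n = 2 each), which is 4.08-fold, or 2.03 on the log2 scale (SE 0.111). Only 17 of the 13546 tested genes had a larger log2 fold change, and none of the 1622 tested genes within 0.5 log2 CPM of its level did. MAP2 was chosen with this contrast known, so its rank is a description and no test. The gene spans chr2:210288771-210598871 on the + strand (GRCh37).

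MAPT encodes tau, the axonal member of the family, and was much scarcer. It had 44 and 31 counts with vehicle and 100 and 109 with Liq. These equal 1.07 and 0.828 CPM against 2.81 and 2.172 CPM. Here too every Liq value exceeded every vehicle value, though the Liq samples differed more from each other than for MAP2. The log2 fold change was 1.37 (SE 0.233), or 2.58-fold. Of the 673 tested genes within 0.5 log2 CPM of its level, 11 had a larger one, which again only describes a gene chosen on this contrast. MAPT lies at chr17:43971893-44105700 on the + strand, and its interval also holds the antisense transcript MAPT-AS1 and the gene STH. The strand setting of the counting is not given in the sources used here, so reads of antisense transcripts cannot be told apart from those of MAPT.

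MAP4 (chr3:47892180-48130762, - strand), the general-purpose member, was the most counted of the 10 genes. Its 4 values were 589 and 594 CPM with vehicle and 600 and 574 CPM with Liq. The groups overlapped, and the log2 fold change was -0.012 (SE 0.062), with a sign that flipped under other scalings. Setting MAP2 against MAP4 within each library gives a ratio free of library scaling. There were 10.6 and 9.27 MAP2 counts per 1000 MAP4 counts with vehicle and 40.0 and 41.8 with Liq. For MAPT the ratios were 1.82 and 1.39 per 1000 with vehicle and 4.69 and 3.79 with Liq. Neither ratio overlapped between the groups. The ratios reuse the counts on which MAP2 and MAPT were chosen, so this separation is no further evidence. The share of all genes that separate between the groups was not computed.

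MAP1A and MAP1B are large filamentous MAPs, each cut into a heavy and a light chain. MAP1B (chr5:71403061-71505392, + strand), the form prominent in growing axons, was at 168 and 180 CPM with vehicle and 173 and 201 CPM with Liq. MAP1A (chr15:43803156-43823818, + strand), the form of mature neurons, was at 5.59 and 4.65 CPM with vehicle and 5.23 and 5.94 CPM with Liq. For both genes 1 Liq sample lay inside the vehicle range and the other above it. The log2 fold changes were 0.11 (SE 0.076) for MAP1B and 0.13 (SE 0.142) for MAP1A, and that of MAP1B was -0.009 without the second Liq sample.

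**Figure D1:**
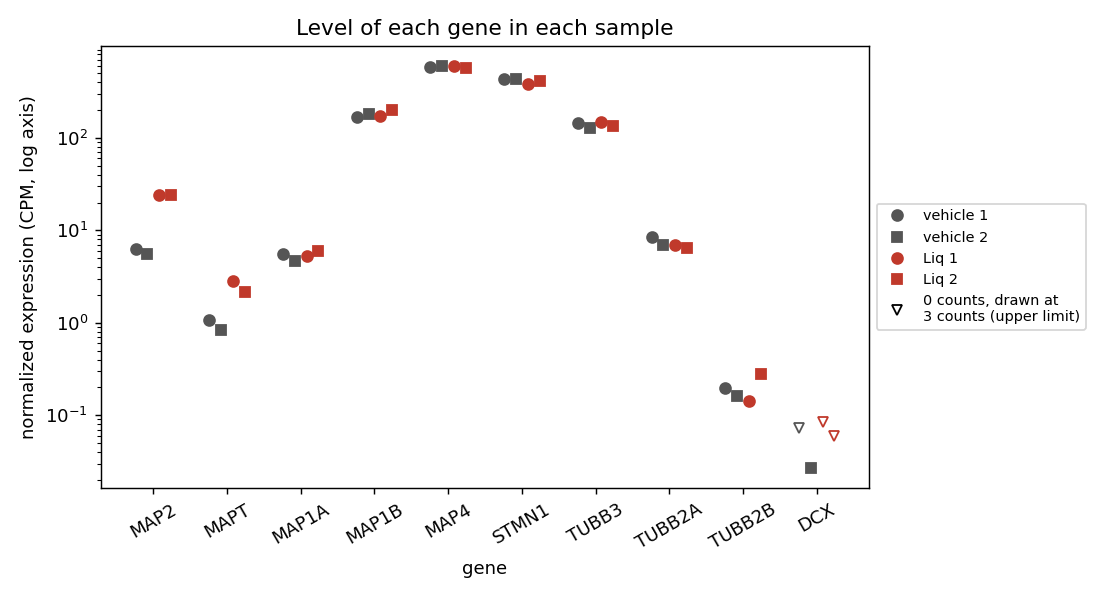
Normalized expression of the 10 genes in each of the 4 samples (CPM, log axis; grey, vehicle; red, Liq; circles and squares, samples 1 and 2; open triangles, 0 counts drawn at the level of 3 counts). MAP2 and MAPT are the genes whose red points stand clearly above the grey ones, and MAP4 and STMN1 are the most abundant at 384 to 600 CPM.

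STMN1 (chr1:26210672-26233482, - strand), whose product binds free tubulin, was the second most counted gene. Its levels were 430 and 439 CPM with vehicle and 384 and 415 CPM with Liq. Both Liq values were below both vehicle values, but the log2 fold change was small at -0.12 (SE 0.065). Among its relatives, STMN2 had no count in any library, STMN4 had 1 count in a single library, and STMN3 stood at 44.8 to 47.0 CPM with a log2 fold change of 0.04 (adjusted p = 0.764, edgeR's quasi-likelihood test).

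The β-tubulins needed more care, because their coding sequences are close copies and reads that align to more than 1 place were not counted. Of 1335 aligned coding bases, TUBB2A and TUBB2B shared 98.2% and differed at 24, whereas TUBB3 and TUBB2B shared 88.5%. The last 60 coding bases before the stop codon encode the acidic tail on which the isotypes differ most and where many modifying enzymes act. They are shown (GRCh37) with bases that differ from TUBB2B in capitals, beside TUBB, the main β-tubulin of these cells.
TUBB2B, chr6:3224988-3225047, - strand: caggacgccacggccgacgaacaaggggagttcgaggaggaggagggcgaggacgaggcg
TUBB2A, chr6:3154100-3154159, - strand: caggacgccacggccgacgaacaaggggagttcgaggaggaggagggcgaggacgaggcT
TUBB3, chr16:90002150-90002209, + strand: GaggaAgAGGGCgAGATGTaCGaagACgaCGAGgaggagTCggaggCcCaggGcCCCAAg
TUBB, chr6:30692112-30692171, + strand: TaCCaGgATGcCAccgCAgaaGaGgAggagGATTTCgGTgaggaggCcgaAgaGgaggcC
In this stretch TUBB2A differed from TUBB2B at 1 base, TUBB at 26 and TUBB3 at 31. When every 100-base stretch of each transcript was searched for elsewhere within 2 mismatches, 66.4% of TUBB2A, 54.9% of TUBB2B and 42.8% of TUBB fitted another place, against 6.8% of TUBB3. The counts of TUBB2A and TUBB2B are therefore uncertain, since reads from these stretches were left out.

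**Figure D2:**
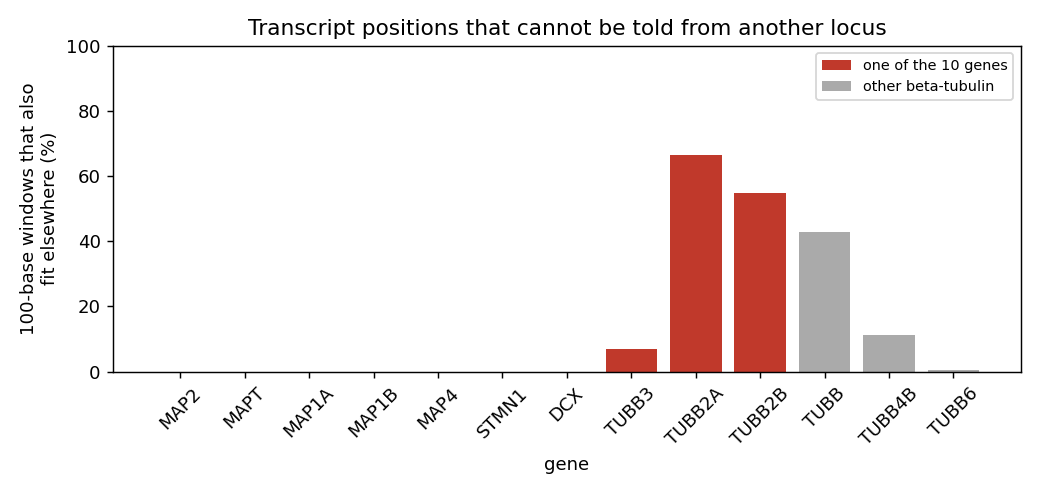
Percent of 100-base windows of each canonical transcript that also fit elsewhere in GRCh37 or in another transcript with at most 2 mismatches (red, the chosen genes; grey, the 3 other β-tubulins above the count filter). The MAPs, STMN1 and DCX are at 0.0%, TUBB3 is at 6.8%, and TUBB2A and TUBB2B are at 66.4% and 54.9%, against 42.8% for TUBB.

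TUBB3 (chr16:89987800-90005169, + strand), the class III isotype, whose locus also holds a readthrough gene, was well expressed and similar in both groups. It was at 146 and 128 CPM with vehicle and 148 and 135 CPM with Liq. The ranges overlapped, and the log2 fold change of 0.04 (SE 0.078) became -0.046 without the second vehicle sample and -0.023 without the first Liq sample. TUBB2A (chr6:3153731-3157778, - strand), a brain-enriched isotype, was at 8.56 and 6.97 CPM with vehicle and 6.89 and 6.52 CPM with Liq. The Liq values lay just under the vehicle values, with a log2 fold change of -0.22 (SE 0.13) that shrank to -0.06 without the first vehicle sample. TUBB2B (chr6:3223558-3231964, - strand) had 8 and 6 counts with vehicle and 5 and 14 with Liq and did not pass the filter on low counts. BPHL overlaps TUBB2A and PSMG4 overlaps TUBB2B on the opposite strand, which adds to the uncertainty of both.

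DCX (chrX:110537007-110655657, - strand) was at the limit of detection. It had 0 and 1 counts with vehicle and 0 and 0 with Liq. At this depth a count of 0 allows a level of up to 0.084 CPM, and no comparison was possible.

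Of the 8 chosen genes that passed the filter, 2 were called higher, MAP2 and MAPT, and 0 were called lower. Over all 13546 tested genes, 6.45% were called, 4.29% higher and 2.16% lower (581 and 293 genes, or 354 and 394 with offsets fitted along the expression level). With an adjusted p under 0.05 at any fold the chosen genes again gave 2 higher and 0 lower, where 24.0% of all tested genes passed, 12.6% higher and 11.3% lower. Since the genes were selected on this contrast, nothing is read from these shares. The median log2 fold change of the 8 genes was 0.07, against 0.006 over all tested genes.

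**Figure D3:**
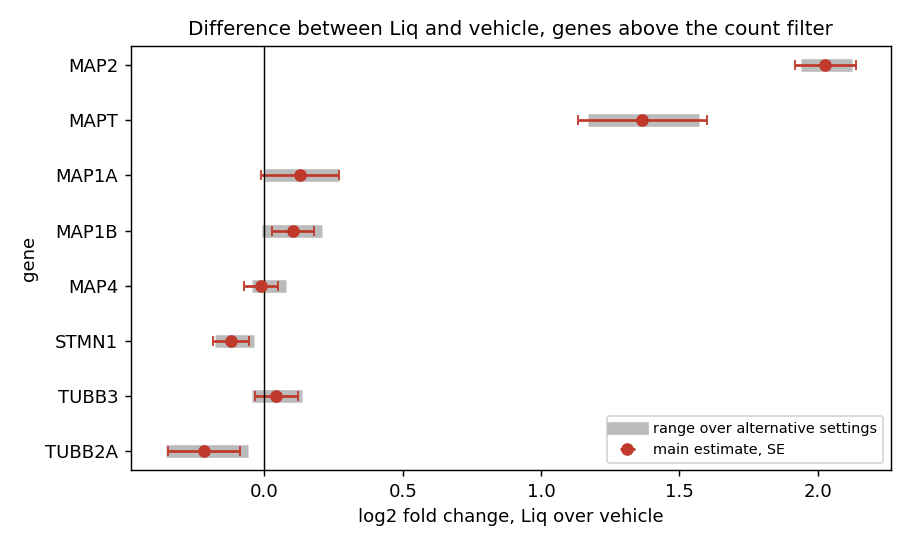
Log2 fold change of Liq over vehicle for the 8 genes above the count filter (point, estimate; whiskers, SE; grey bars, range over 11 alternative settings). MAP2 and MAPT lie at 2.03 and 1.37 with grey bars that stay right of 1, and the other genes lie within 0.22 of 0.

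Levels of different genes were compared as CPM per kilobase of exon. With vehicle the order was STMN1 (69.6), MAP4 (39.4), TUBB3 (18.5), MAP1B (13.9), TUBB2A (2.67), MAP2 (0.496), MAP1A (0.481), MAPT (0.0516), TUBB2B (0.0426) and DCX (0.00131). The ranges of MAP2 and MAP1A overlapped, as did those of MAPT and TUBB2B, so these neighbours were not separated. With Liq the order of the genes was the same, but MAP2 (2.03) stood clear of MAP1A (0.525) and close below TUBB2A (2.31), and MAPT (0.135) stood clear of TUBB2B (0.0504). The order depends in part on the length used: per kilobase of the canonical transcript, TUBB3 (80.3) exceeded MAP4 (64.1) with vehicle.

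Within the pool of the 5 lattice MAPs among the chosen genes, again per kilobase of exon, MAP4 supplied 73.0% and 72.1% of the signal with vehicle and 70.8% and 67.1% with Liq. MAP1B supplied 25.5% ± 0.84 and 26.3% ± 2.61 (SD, n = 2). The share of MAP2 was 0.981% and 0.846% with vehicle and 3.59% and 3.55% with Liq. MAPT supplied 0.108% and 0.082% with vehicle and 0.27% and 0.207% with Liq. MAP2 with Liq thus remained a small part of a pool made up mostly of MAP4 and MAP1B.

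In the β-tubulin pool TUBB supplied 51.4% ± 0.35 with vehicle and 54.5% ± 0.761 with Liq. TUBB4B, listed under its older symbol TUBB2C, supplied 32.6% and 32.0%, and TUBB6 13.9% ± 0.033 and 11.2% ± 0.171. TUBB3 was a minor isotype, at 1.94% and 1.85% with vehicle and 2.12% and 2.08% with Liq. TUBB2A supplied 0.274% and 0.255%, and TUBB2B 0.00438% and 0.00564%. The rank of the 6 isotypes was the same with 4 other scales, but the share of TUBB3 over all samples was 2.0% per kilobase of exon and 5.33% per kilobase of the canonical transcript.

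**Figure D4:**
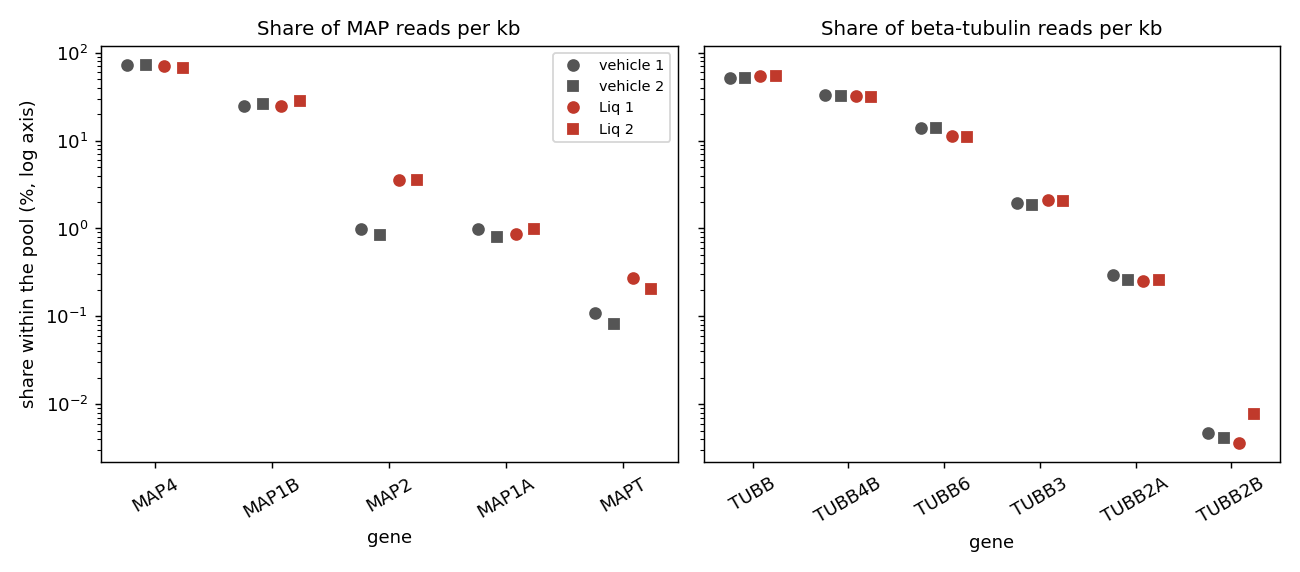
Share of each gene within the MAP pool (left) and the β-tubulin pool (right) in each sample, from CPM per kilobase of exon (percent, log axis; grey, vehicle; red, Liq). The MAP2 points move from 0.846% to 0.981% with vehicle up to 3.55% to 3.59% with Liq, while TUBB3 stays between 1.85% and 2.12%.

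The tubulins outside the chosen genes were tested with edgeR's quasi-likelihood test and Benjamini-Hochberg adjustment, and in this fit without a block none of 8 was called at 1.5-fold, while 5 had an unadjusted p under 0.05. DESeq2 called none either, with no adjusted p for TUBA4A, which gave 1.40 (adjusted p = 0.0698) in edgeR on 3 to 15 counts. TUBB6, a widely expressed class V isotype, fell from 551 and 512 CPM to 417 and 381 CPM, a difference on the log2 scale of -0.41 with an SE of 0.067 (adjusted p = 5.11e-05). TUBB and TUBB4B gave -0.02 (adjusted p = 0.848) and -0.13 (adjusted p = 0.162), and the sign for TUBB flipped under other scalings. Among α-tubulins TUBA1A, the form abundant in the developing brain, gave 0.28 (adjusted p = 0.0116) and TUBA1C gave -0.25 (adjusted p = 0.00761). TUBA1B, the most counted α-tubulin at 634 to 735 CPM, gave -0.12 (adjusted p = 0.196), and the scarce TUBA8, with 12 to 25 counts, gave 0.81 (adjusted p = 0.138). TUBA1A missed the threshold without the second vehicle sample (adjusted p = 0.344) and TUBA1C without the first vehicle sample (adjusted p = 0.23) or with offsets fitted along the expression level (adjusted p = 0.0752). Of the 100-base windows, 52.3% of TUBA1A, 68.5% of TUBA1B and 35.4% of TUBA1C fitted elsewhere.

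Tubulin-modifying enzymes add or remove glutamate, glycine, tyrosine or acetyl groups on the polymer. Of 18 tested, 3 were called higher and 0 lower, where 4.29% and 2.16% of all tested genes were, and the median was 0.15. This list and those below were chosen with earlier results known, so setting their counts beside these shares is no test. Offsets fitted along the expression level left 1 higher and 1 lower (SVBP), the DESeq2 Wald test left 1 higher, and DESeq2 size factors left 2. TTLL1, a polyglutamylase, rose from 4.96 and 4.30 CPM to 8.49 and 8.33 CPM (log2 fold change 0.86, SE 0.131, adjusted p = 2.56e-05 by edgeR's quasi-likelihood test). TTLL3, a glycylase, gave 0.80 (adjusted p = 0.0327) on 25 and 39 counts with vehicle and 53 and 69 with Liq. VASH2, a catalytic subunit of the enzyme that removes the last tyrosine of α-tubulin, gave 0.59 (adjusted p = 0.00524), and its partner SVBP (listed as CCDC23) gave -0.49 (adjusted p = 0.00571) and was not called. Without the first vehicle sample TTLL3 gave 0.45 (adjusted p = 0.47) and VASH2 0.50 (adjusted p = 0.0994), and without the first Liq sample TTLL3 gave 0.75 (adjusted p = 0.0665) and VASH2 0.54 (adjusted p = 0.0114), so neither was called in these fits. TTLL1 was called in each of them.

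Tubulin folding cofactors include prefoldin, the TBC proteins and the CCT ring that folds new tubulin. None of the 21 tested was called at 1.5-fold by edgeR or DESeq2, although 13 had an unadjusted p under 0.05. At any fold 10 passed lower and 1 higher, where 11.3% and 12.6% of all tested genes did, and the median was -0.17. All 8 CCT subunits, grouped after their values were seen, had log2 fold changes below 0 with a median of -0.23, and 7 of them passed at any fold, with CCT2 at -0.29 (adjusted p = 0.00173, edgeR's quasi-likelihood test) and CCT4 at -0.27 (adjusted p = 0.00258). The number that passed was 3 without the first or without the second vehicle sample, 4 without the first Liq sample and 3 with offsets fitted along the expression level.

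Kinases that phosphorylate tau or other MAPs gave 0 called higher and 1 lower of 18 tested, where 4.29% and 2.16% of all tested genes were. At any fold the shares of all tested genes were 12.6% higher and 11.3% lower. The called gene was CAMK2B, a subunit of the calcium/calmodulin-dependent kinase that phosphorylates MAP2, which fell from 10.2 and 9.51 CPM to 3.46 and 2.67 CPM (log2 fold change -1.71, SE 0.143, adjusted p = 1.23e-09 by edgeR's quasi-likelihood test). CAMK2D gave 0.41 (adjusted p = 0.00236), and the tau kinases GSK3A and CDK5 gave -0.29 (adjusted p = 0.0172) and -0.33 (adjusted p = 0.0109), all without reaching 1.5-fold. At any fold, 1 gene passed higher and 4 lower, where without the first vehicle sample 0 passed higher and 1 lower.

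The other microtubule lists held few differences of 1.5-fold, where 4.29% of all tested genes were called higher and 2.16% lower. The 13 genes of the γ-tubulin ring complex, which nucleates microtubules, gave none at any fold with all 4 samples by edgeR without a block or by DESeq2, while 3 had an unadjusted p under 0.05. With all 4 samples, 6 of the 13 log2 fold changes were below 0 and 7 above, with a median of 0.021. TUBGCP2, a scaffold subunit of the ring, gave -0.27 without the first Liq sample, and its targeting factor NEDD1 gave -0.28 without the second. Of 21 other lattice-binding MAPs, MAP1LC3A, a light chain of the MAP1 family and an autophagy protein, was called higher at 0.59 (adjusted p = 0.0182, edgeR's quasi-likelihood test). It was not called without the first vehicle sample (0.50, adjusted p = 0.204), the second (0.68, adjusted p = 0.058) or the second Liq sample (0.55, adjusted p = 0.0578), nor with the fitted offsets (0.42, adjusted p = 0.0974) or DESeq2 (0.58, adjusted p = 0.139). With all 4 samples none was called of 22 proteins that bind microtubule ends, 13 severing and depolymerizing proteins and 26 transport motors by edgeR or DESeq2, and 8, 2 and 10 of them had an unadjusted p under 0.05. KATNAL2, a katanin-like severing protein, gave 0.53 (adjusted p = 0.01) and was called without the first vehicle sample (0.71, adjusted p = 0.00861) or the second Liq sample (0.59, adjusted p = 0.00397). CAMSAP2 (listed as CAMSAP1L1), which caps minus ends, gave -0.36 (adjusted p = 0.00147), the kinesin heavy chain KIF5B -0.25 (adjusted p = 0.0103) and the dynein heavy chain DYNC1H1 0.25 (adjusted p = 0.00466). Over all tested genes 12.6% passed higher and 11.3% lower at any fold. At any fold 4 genes of these 3 lists passed higher and 6 lower, and none passed without the second vehicle sample.

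**Figure D5:**
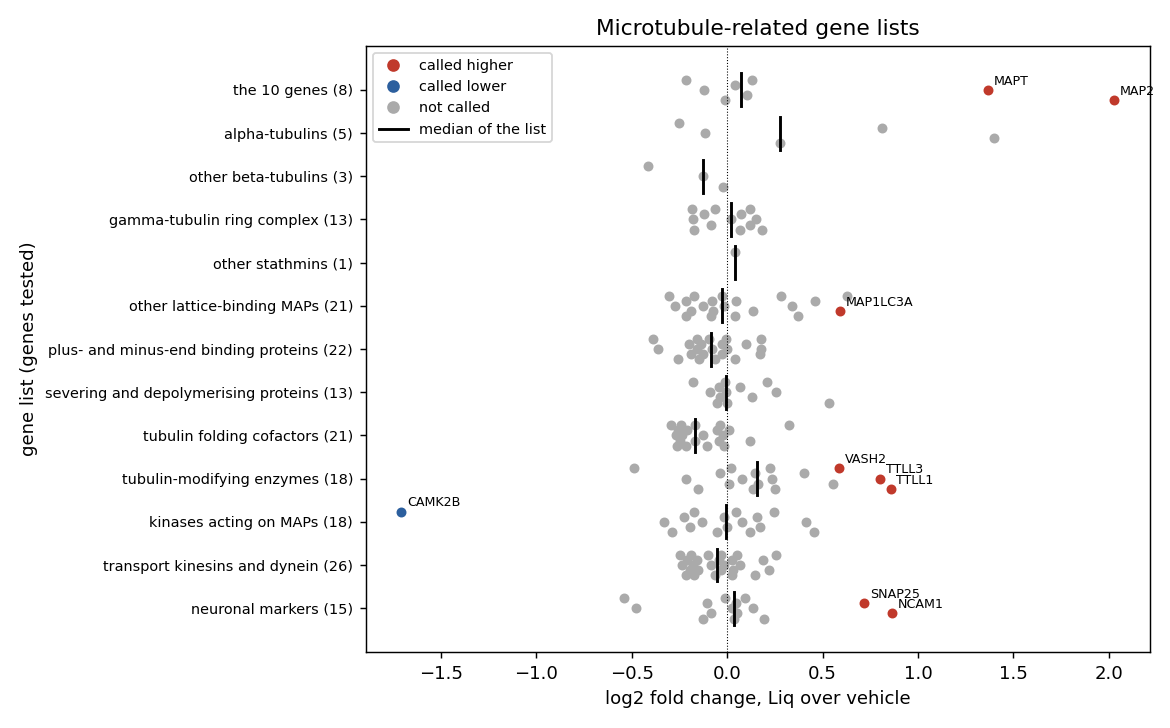
Log2 fold change of Liq over vehicle for every tested gene of the 10 genes, the microtubule lists and the neuronal markers (points; red, called higher; blue, called lower; grey, not called; black bars, list medians; number of genes tested in parentheses). MAP2 and MAPT at 2.03 and 1.37 are the called genes furthest to the right, CAMK2B at -1.71 is furthest to the left, and the medians drawn lie between -0.17 and 0.28.

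Neuronal genes outside the MAPs were examined because MAP2, tau, DCX and TUBB3 are used as neuronal markers. Of 26 listed, 7 had no count in any library, among them NEFM, NEFH, RBFOX3 (NeuN) and NEUROD1, and 15 were tested. Others were well expressed in both groups, with UCHL1 at 603 to 684 CPM, ENO2 at 91.5 to 101 CPM and NEFL at 20.5 to 22.9 CPM. NCAM1, a neural cell adhesion molecule, rose from 6.23 and 6.09 CPM to 11.2 and 11.2 CPM (log2 fold change 0.87, SE 0.117, adjusted p = 4.52e-06 by edgeR's quasi-likelihood test). SNAP25, a synaptic vesicle fusion protein, rose from 9.70 and 8.98 CPM to 15.9 and 14.9 CPM (0.72, SE 0.108, adjusted p = 2.05e-05). Other markers went the other way. ELAVL2, a neuronal RNA-binding protein, gave -0.54 (adjusted p = 0.032) and CHGB, a secretory granule protein, -0.48 (adjusted p = 0.136), and neither was called. ELAVL2 was called lower without the second Liq sample (-0.61, adjusted p = 0.0405), and both were with offsets fitted along the expression level (-0.71, adjusted p = 0.00657, and -0.67, adjusted p = 0.041). The remaining 11 were not called in any of these fits, and the neurofilament gene NEFL (0.045, adjusted p = 0.779) and the repressor of neuronal genes REST (-0.013, adjusted p = 0.932) are examples. Of the ovarian markers, PAX8 (49 and 46 counts with vehicle, 12 and 29 with Liq) and WT1 (168 and 181, then 98 and 140) were called lower by edgeR's quasi-likelihood test, though WT1 was not without the second vehicle sample (-0.56, adjusted p = 0.0718). KRT7 rose at 0.51 (adjusted p = 1.08e-05 by the same test), short of 1.5-fold, gave 0.59 without the first vehicle sample and was called with the fitted offsets (0.59). VIM at -0.28 (adjusted p = 0.000341) and KRT18 at -0.24 (adjusted p = 0.0132) were lower, also short of 1.5-fold. Of 6 ovarian markers tested, 0 were called higher and 2 lower, where 4.29% and 2.16% of all tested genes were. ACTA2, a smooth muscle actin, was called higher at 0.85 (adjusted p = 0.000111, edgeR's quasi-likelihood test). The part of these genes in the MAP2 and MAPT difference was not tested.

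Because Liq is used as an ERβ agonist, the receptors were read from the same libraries. ESR2, which encodes ERβ, had 4 and 7 counts with vehicle and 5 and 14 with Liq, and ESR1 had 22, 17, 19 and 34 counts in the same order. GPER1 had 23, 24, 19 and 26. No library held more than 34 reads on any of them.

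Promoter windows of 250 bases upstream of an annotated start (RefSeq, GRCh38.p14) were matched for 9 of the 10 genes, 19 windows in all, the exception being MAPT. The first of the 3 MAP2 windows and the first of the 2 MAP1B windows are shown, as the gene that differed most and a neuronal MAP with overlapping groups, with GC boxes (GGGCGG on either strand) in capitals. The count tables do not show which start was used.
MAP2, chr2:209579082-209579331, + strand: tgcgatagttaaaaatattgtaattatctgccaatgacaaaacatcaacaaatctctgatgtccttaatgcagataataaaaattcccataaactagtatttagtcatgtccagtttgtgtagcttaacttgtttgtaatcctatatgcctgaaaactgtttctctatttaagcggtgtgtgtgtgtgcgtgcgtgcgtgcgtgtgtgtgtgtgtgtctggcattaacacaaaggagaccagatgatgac
MAP1B, chr5:72107225-72107474, + strand: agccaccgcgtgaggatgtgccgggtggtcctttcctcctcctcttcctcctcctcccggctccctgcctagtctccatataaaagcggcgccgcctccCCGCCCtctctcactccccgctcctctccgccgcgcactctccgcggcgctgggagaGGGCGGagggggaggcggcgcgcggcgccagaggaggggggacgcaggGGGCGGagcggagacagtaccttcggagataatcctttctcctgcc
The MAP2 windows had 37.6% to 51.2% GC, 4 to 8 CpG dinucleotides and no GC box, where the median of all windows was 11 CpG and 42.6% of 35116 windows held a GC box. Every DCX window (1 to 3 CpG), a MAP4 window (1 CpG) and a TUBB3 window (9 CpG) likewise lay below this median and held no GC box. The MAP1B window shown had 70.0% GC, 25 CpG and 3 GC boxes, and its other window had 60.4% GC, 11 CpG and 2 GC boxes. On both strands, the estrogen response element GGTCANNNTGACC was in none of the 19 windows and in 0.0399% of all windows. The antioxidant response element core TGACNNNGC, found in 10.9% of all windows, was in 1 window each of MAP1A, MAP4 and TUBB3, and the AP-1 site TGANTCA, found in 6.57%, was in 1 TUBB3 window. No MAP2 window held any of these letters, which says nothing about the factors that act on the gene.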

How the data were processed

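RNA was isolated from ES2 cells and TruSeq libraries were sequenced as 100-base single reads on a HiSeq instrument. Per the labels, the authors converted reads with bcl2fastq 2.17.1.14, aligned them to hg19 with TopHat2 2.0.8b and used HTSeq for counting. The deposited values are raw counts of reads on each gene symbol, 1 table per sample. The HTSeq version, annotation and strand setting are not given in the sources used here. The tally of alignments to several places (35.63% to 36.23% of the sum of all lines) stood outside the gene counts, so close copies were undercounted. Whether that line counts each read once or each of its alignments is not given, so these percentages may not be shares of reads. The closing tally lines, which name no gene, stayed out of library sizes and tests. They held the rest of that sum, as 54.06% to 55.62% of it was on genes. The dose was taken from the study's methods.

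Testing used edgeR 4.0.16 under R 4.3.3 (filterByExpr, minimum count 10, minimum total 15; TMM; glmQLFit and glmQLFTest over all 4 samples, no block). CPM used the TMM-scaled library sizes, and an SE was the log2 fold change divided by the square root of F. Lengths and coordinates came from GENCODE 44 mapped to GRCh37. Alternatives were DESeq2 1.42.0, other normalizations, filters and fold thresholds, a block on the replicate number, and leaving out each sample. On simulated counts with 200 changed genes the fits recovered the direction of each. The changes were 2-fold, in well-counted genes, and used the spread estimated by the fit. Scarce genes and smaller differences were therefore not covered. Replicates differed by more than sampling noise (chi-square per degree of freedom 6.56 and 11.59, against 60.92 to 74.6 between groups), so all counted separately.

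The 10 genes and all gene lists were chosen with earlier results of these data known. Named genes were all 10 and the tubulin isotypes with at least 10 counts in every sample. From each other list at most 3 with the lowest p were named. Further genes named beside them (SVBP, TUBA4A, ELAVL2, CHGB, CAMK2D, GSK3A, CDK5, NEFL, REST, UCHL1, ENO2 and the marker genes) were picked after their values were seen. No table of the authors' own comparisons was used.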

Additional observations from a re-analysis of the deposited data

How the results depend on the processing

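Over 11 alternative fits the log2 fold change ranged from 1.94 to 2.12 for MAP2 and from 1.17 to 1.57 for MAPT. Both met the call rule in each, but they were chosen on this contrast, so this is no independent sign of stability. Of the small differences, MAP1B reversed to -0.009 without the second Liq sample (-0.009 to 0.207 with 1 sample left out). MAP4 (-0.045 to 0.02) became 0.016 with upper-quartile scaling, 0.077 with offsets fitted along expression and 0.02 without the second Liq sample. TUBB3 (-0.046 to 0.137) became -0.046 without the second vehicle sample and -0.023 without the first Liq sample. TUBB (-0.067 to 0.03) became 0.009 with upper-quartile scaling, 0.086 with the fitted offsets, 0.03 without the first vehicle sample and 0.015 without the second Liq sample. The median of all genes moved from 0.006 to at most 0.0335 under any scaling.

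Over all genes 874 were called. The number was 567 with the DESeq2 Wald test, 328 at 2-fold and 659 to 979 with 1 sample left out. At any fold it was 3245, and 1413 to 3780 with 1 sample left out, with 1413 without the first vehicle sample and 1542 without the second. The cause of these changes was not tested. The fitted offsets changed the split from 581 higher and 293 lower to 354 higher and 394 lower. Leaving a group with 1 sample assumes that it varies like the other group. The replicate block gave 898 calls and 4795 genes at any fold. It added a call of TUBA4A (1.47, adjusted p = 0.0431), ended that of MAP1LC3A (0.58) and passed 3 γ-tubulin ring genes lower at any fold. Of the chosen genes it also passed STMN1 lower at any fold, which gave 2 higher and 1 lower. The same-numbered samples correlated weakly (0.0483 across genes), and the shared numbers are only names, so no pairing was assumed.

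The share of TUBB3 among β-tubulins (2.0%) became 5.33% per canonical transcript length, 2.41% per longest transcript, 4.28% in raw counts and 4.03% per uniquely placed window, the last a scale added after the data had been seen. That of TUBB2A (0.264%) became 0.291%, 0.244%, 0.222% and 0.615% on the same scales, and that of TUBB2B (0.00501%) became 0.0103% per uniquely placed window. Depth limits TUBB2B, with at most 14 counts in a library, and DCX, with at most 1.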
